A study of Arabidopsis thaliana with 4 samples.

Results

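The genes described here are 10 of *Arabidopsis* that carry the flavonoid and anthocyanin pathway, out of 23281 features in the ONT Pc expression table. They were taken by gene identifier, and they were chosen by their CPM in the 3 ONT Pc replicates, between which they differed, so all of their differences are descriptions with no test. The early steps are *CHS* (AT5G13930), *CHI* (AT3G55120), *F3H* (AT3G51240), and *F3'H* (AT5G07990). *FLS1* (AT5G08640) opens the flavonol branch. *DFR* (AT5G42800) and *LDOX* (AT4G22880) belong to the anthocyanin branch. *UGT78D2* (AT5G17050) serves both branches, and *MYB75* (AT1G56650) and *MYB111* (AT5G49330) are regulators.

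Wild-type Col-0 plants were grown at 23 °C by day and 18 °C by night with 16 h of light and 8 h of dark, and the aboveground parts were collected when rosette growth was complete. ONT Pc, in which cDNA is amplified by PCR and then read through a nanopore, was run on 3 replicates named CTRL1, CTRL2, and CTRL3, and PacBio was run on 1 library. Each replicate was a pool of plants, all were untreated, and no group of another genotype or treatment was analysed here. The values below are CPM, that is, reads of a gene per 1000000 reads of its replicate, and 1 read stands for 1 cDNA.

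Flavonoids are made from phenylalanine through the phenylpropanoid pathway. Chalcone synthase, encoded by *CHS*, joins a phenylpropanoid CoA ester to malonyl units, chalcone isomerase (*CHI*) closes the ring, and the hydroxylases encoded by *F3H* and *F3'H* complete the dihydroflavonols. From there flavonol synthase (*FLS1*) leads to flavonols, the colourless sunscreen pigments of leaves, while dihydroflavonol reductase (*DFR*) and leucoanthocyanidin dioxygenase (*LDOX*) lead to the red and purple anthocyanins. The glucosyltransferase UGT78D2 adds glucose to both products. MYB111 activates early and flavonol genes, and MYB75, also called PAP1, activates anthocyanin genes together with bHLH and WD40 partners.

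The promoters of *CHS*, *F3H*, *F3'H*, *DFR*, and *LDOX* are shown because these 5 genes differed between replicates by like factors, as given below, and that of *FLS1* because it opens the other branch and varied less. Each is the 250 bases before the annotated start of the gene in RefSeq TAIR10.1, written 5′ to 3′ on the strand of the gene. They lie at chr5:4488226-4488475 (+) for *CHS*, chr3:19024942-19025191 (+) for *F3H*, chr5:2560078-2560327 (+) for *F3'H*, chr5:17166033-17166282 (−) for *DFR*, chr4:12006210-12006459 (−) for *LDOX*, and chr5:2803583-2803832 (+) for *FLS1*. Capitals mark 4 patterns searched on both strands. These are ACGT, the longer CACGTG that has ACGT at its centre, and the MYB patterns ACCNACC as well as ACCTAAC.
CHS: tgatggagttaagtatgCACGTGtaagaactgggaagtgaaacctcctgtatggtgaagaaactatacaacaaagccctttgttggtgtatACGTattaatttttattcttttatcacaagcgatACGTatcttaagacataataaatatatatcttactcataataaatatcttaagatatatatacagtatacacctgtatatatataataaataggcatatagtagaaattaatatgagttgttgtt
F3H: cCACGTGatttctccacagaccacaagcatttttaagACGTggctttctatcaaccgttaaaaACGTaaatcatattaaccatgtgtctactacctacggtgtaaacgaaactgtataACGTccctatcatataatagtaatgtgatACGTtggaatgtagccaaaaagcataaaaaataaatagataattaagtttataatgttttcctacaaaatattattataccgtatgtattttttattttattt
F3'H: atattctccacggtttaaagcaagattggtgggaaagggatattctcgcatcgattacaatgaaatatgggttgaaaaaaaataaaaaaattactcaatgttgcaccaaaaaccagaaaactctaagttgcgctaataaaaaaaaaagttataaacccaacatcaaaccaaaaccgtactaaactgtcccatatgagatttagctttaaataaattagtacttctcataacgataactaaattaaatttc
DFR: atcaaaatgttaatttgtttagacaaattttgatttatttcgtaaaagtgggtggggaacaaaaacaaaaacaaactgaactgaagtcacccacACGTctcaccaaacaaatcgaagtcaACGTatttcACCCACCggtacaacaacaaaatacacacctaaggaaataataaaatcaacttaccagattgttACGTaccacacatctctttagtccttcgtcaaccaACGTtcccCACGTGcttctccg
LDOX: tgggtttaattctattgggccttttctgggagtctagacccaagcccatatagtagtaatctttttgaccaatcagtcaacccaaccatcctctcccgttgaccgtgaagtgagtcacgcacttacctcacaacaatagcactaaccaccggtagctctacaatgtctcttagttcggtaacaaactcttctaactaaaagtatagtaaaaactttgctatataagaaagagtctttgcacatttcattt
FLS1: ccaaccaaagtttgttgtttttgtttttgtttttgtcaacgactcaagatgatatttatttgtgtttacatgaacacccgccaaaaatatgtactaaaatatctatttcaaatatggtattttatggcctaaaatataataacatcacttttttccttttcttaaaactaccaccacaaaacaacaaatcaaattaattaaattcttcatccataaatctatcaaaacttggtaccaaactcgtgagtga

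CACGTG, the G-box that bZIP and bHLH proteins can bind, was present in the promoters of *CHS*, *F3H*, and *DFR*, which is 3 of the 10 genes, and in 6.49% of 27443 promoters of the same length. It started 233 bases before the start of *CHS*, 249 bases before that of *F3H*, and 14 bases before that of *DFR*. ACGT, the core of such boxes, was present in 4 of the 10, the fourth being *MYB111*, and in 44.1% of all promoters. *F3H* and *DFR* each held 5 copies of it and *CHS* held 3. ACCNACC, a letter pattern of MYB sites, was found in *DFR* alone, 121 bases before its start, and in 6.1% of all promoters. ACCTAAC, another MYB pattern, was found in 0 of the 10 and in 2.46% of all. The general bHLH letters CANNTG, which include CACGTG, were present in 6 of the 10 and in 55.3% of all. Of the 5 genes with like factors, 3 thus held CACGTG, while *F3'H* held only CANNTG and the windows of *LDOX* and of *FLS1* held none of the 5 patterns. With the 50 bases after the start added, *FLS1* also held ACGT, *CHI* also held CACGTG, and *CHS* also held ACCNACC. These matches describe letters in a window and were not tested as binding sites.

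The 3 replicates had 8122432, 7386184, and 6835029 reads, and all 10 genes passed the minimum of 10 reads in all. A gene without reads could still be present at up to 3 reads, which is 0.369 to 0.439 CPM, and this limit covers counting error only because PCR copies are not independent molecules. Leaf genes identified the tissue in every replicate, since 5 markers such as *RBCS1A*, a Rubisco small subunit, added to 75614, 62776, and 62281 CPM in CTRL1, CTRL2, and CTRL3. Of the seed storage genes, only *CRA1* was listed, with 2 reads in CTRL2. Of the root markers, *CASP1* and *CASP2* had at most 2 reads in a replicate, and *PYK10*, expressed mainly in roots, stood at 17.4, 18.1, and 17.7 CPM.

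All 10 genes were highest in CTRL2, intermediate in CTRL1, and lowest in CTRL3, an order shown by 15.6% of the 19032 features with at least 10 reads. In the same order of CTRL1, CTRL2, and CTRL3, they added to 327, 640, and 86.9 CPM, a mean of 351 ± 277 (SD, n = 3). The SD is thus close to the mean. CTRL2 exceeded CTRL1 by 0.31 to 1.29 on the log2(CPM + 0.5) scale and beyond counting error in 9 of the 10, all but *MYB111*. The tissue was sequenced in bulk, so fewer cells that use the pathway and less RNA per cell cannot be told apart.

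**Figure D1:**
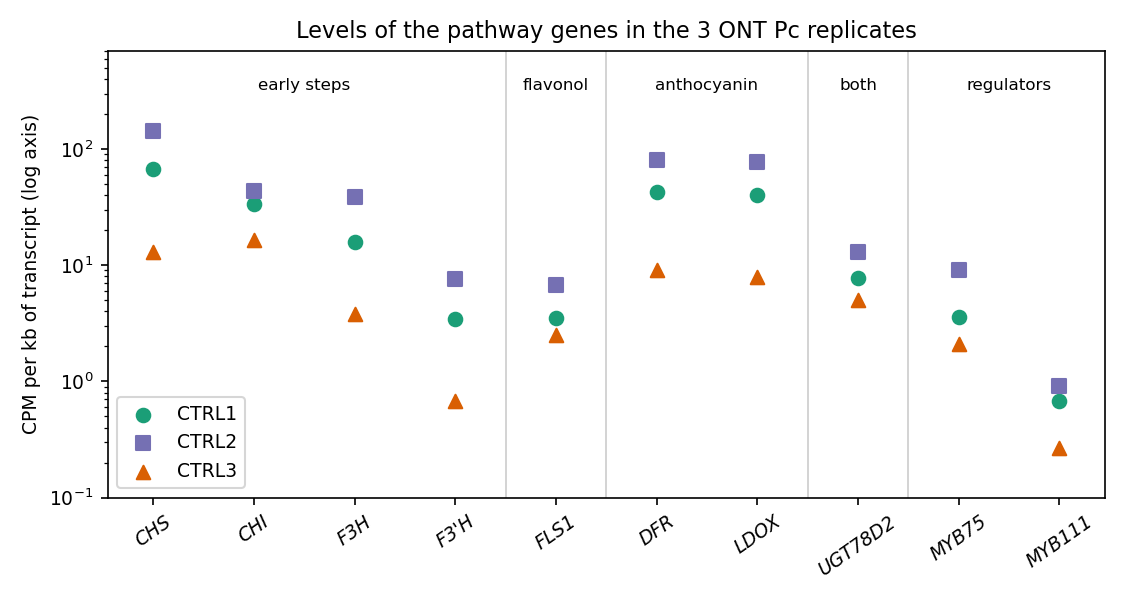
Level of each gene in CPM per kb of annotated transcript on a log axis, with CTRL1 as circles, CTRL2 as squares, and CTRL3 as triangles, ordered by step of the pathway. CTRL3 is lowest for all 10 genes, and its distance from the others is wide for *CHS*, *F3H*, *F3'H*, *DFR*, and *LDOX* and narrower for *CHI*, *FLS1*, and *UGT78D2*.

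*CHS*, the entry enzyme, had 937 reads in CTRL1, 1811 in CTRL2, and 150 in CTRL3, which is 115, 245, and 21.9 CPM. CTRL2 was therefore 11.2-fold above CTRL3, with a counting interval of 9.45 to 13.3, and CTRL1 was 5.26-fold above it. The gap between CTRL2 and CTRL1 was 2.13-fold. All 3 replicates were thus separated beyond counting error.

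*CHI*, the second enzyme, varied far less, with 301, 358, and 125 reads, or 37.1, 48.5, and 18.3 CPM in CTRL1, CTRL2, and CTRL3. CTRL1 was 2.03-fold above CTRL3 and CTRL2 was 1.31-fold above CTRL1. The ratio of *CHI* to *CHS* therefore changed between replicates, from -1.64 and -2.34 on the log2 scale of CPM in CTRL1 and CTRL2 to -0.26 in CTRL3. *CHIL*, a chalcone isomerase-like protein without a catalytic role that is known to assist the pathway, was given by 290, 470, and 88 reads and lay between *CHI* and *CHS* in its ratio of CTRL3 to the other replicates.

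*F3H* had 192, 432, and 39 reads, or 23.6, 58.5, and 5.71 CPM. CTRL2 was 10.3-fold above CTRL3, counting interval 7.38 to 14.6. *F3'H*, a cytochrome P450 that adds the second hydroxyl to the B ring, had 54, 109, and 9 reads, or 6.65, 14.8, and 1.32 CPM. Its ratio of CTRL2 to CTRL3 was 11.2 with an interval of 5.69 to 25.2, close to that of *CHS* at a far lower number of reads.

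In the flavonol branch, *FLS1* had 43, 76, and 26 reads, or 5.29, 10.3, and 3.80 CPM. CTRL2 was 2.70-fold above CTRL3 and 1.94-fold above CTRL1. The ratio of CTRL1 to CTRL3 was 1.39 with a counting interval of 0.836 to 2.36, so *FLS1* was not separated between these replicates at this depth. *MYB111* had only 9, 11, and 3 reads, or 1.11, 1.49, and 0.439 CPM, and its ratio of CTRL2 to CTRL3 had an interval of 0.896 to 18.9. Its order was therefore not resolved either.

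In the anthocyanin branch, *DFR* had 526, 907, and 95 reads, or 64.8, 123, and 13.9 CPM. CTRL2 was 8.83-fold above CTRL3, counting interval 7.15 to 11.0, and CTRL1 was 4.66-fold above it. *LDOX*, the next enzyme, had 461, 792, and 75 reads, or 56.8, 107, and 11.0 CPM, with CTRL2 at 9.77-fold and CTRL1 at 5.17-fold the level of CTRL3. *DFR* and *LDOX* thus moved by nearly the same factors.

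*UGT78D2*, which acts on both products, had 103, 154, and 56 reads, or 12.7, 20.8, and 8.19 CPM. CTRL2 was 2.54-fold above CTRL3, counting interval 1.86 to 3.52, and CTRL1 was 1.55-fold above it. *MYB75* had 32, 75, and 16 reads, or 3.94, 10.2, and 2.34 CPM. CTRL2 was 4.34-fold above CTRL3 and 2.58-fold above CTRL1, while the ratio of CTRL1 to CTRL3 had an interval of 0.897 to 3.28. *MYB75* was therefore not separated between CTRL1 and CTRL3 at this depth. The log2 ratio of *DFR*, a known target, to *MYB75* was 4.04, 3.60, and 2.57 in CTRL1, CTRL2, and CTRL3.

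On the log2(CPM + 0.5) scale, the median of the 10 genes was -1.48 for CTRL3 against CTRL1, -2.49 for CTRL3 against CTRL2, and 0.91 for CTRL2 against CTRL1. The medians of all 19032 features were 0.10, 0.06, and 0.06. These comparisons share replicates, so they are not independent of each other. Between CTRL3 and CTRL1, 5 of the 10 genes were at least 2-fold lower in CTRL3, beside 1.51% of all features, and 0 were 2-fold higher, beside 3.71%. The 5 were *CHS*, *F3H*, *F3'H*, *DFR*, and *LDOX*. *CHI* and *MYB111* are past 2-fold in CPM alone and are left out only through the pseudocount of 0.5, since with a pseudocount of 0.1 the count is 7. Between CTRL3 and CTRL2, 10 of 10 were at least 2-fold lower in CTRL3, beside 2.73% of all features, and 0 were 2-fold higher, beside 2.95%. Between CTRL2 and CTRL1, *CHS*, *F3H*, *F3'H*, and *MYB75* were at least 2-fold higher in CTRL2, 4 of the 10, beside 3.30% of all features, and 0 were 2-fold lower, beside 1.10%. The 5 genes lower in CTRL3 than in CTRL1 were so against both other replicates, as were 0.941% of all features, and 1.00% of all were higher than both. The genes were selected on the same contrasts, so nothing is read from these shares. *CHI* was nearest to the 2-fold limit, at -0.9993 between CTRL3 and CTRL1 and outside it, whereas *F3H*, the nearest gene inside it, stood at -1.96.

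The 5 genes at least 2-fold lower in CTRL3 than in both other replicates kept nearly constant ratios to each other. Over their 10 pairs, the SD of the log2 ratio of CPM over the 3 replicates was 0.03 to 0.21. *F3'H* over *CHS* stood at -4.12, -4.05, and -4.06 in CTRL1, CTRL2, and CTRL3, and this spread is below the counting error of 0.32 for that pair. *DFR* over *LDOX* stood at 0.19, 0.20, and 0.34. The transcripts of these early and anthocyanin enzymes thus changed by about the same factor in each replicate.

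The other 5 genes, *CHI*, *FLS1*, *UGT78D2*, *MYB111*, and *MYB75*, had SDs of 0.12 to 0.51 among themselves. *UGT78D2* over *FLS1* was steady, at 1.26, 1.02, and 1.11. Between the sets the 25 pairs had SDs of 0.70 to 1.15, above every pair within a set. The sets were formed by the 2-fold limit on the same values and with the pseudocount, so this is a description of the 10 genes and no test. *CHI*, nearest to the limit, had SDs of 0.89 to 1.06 against the first set and 0.20 to 0.51 against the second. A ratio within a replicate does not depend on the total to which the replicate was scaled.

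**Figure D2:**
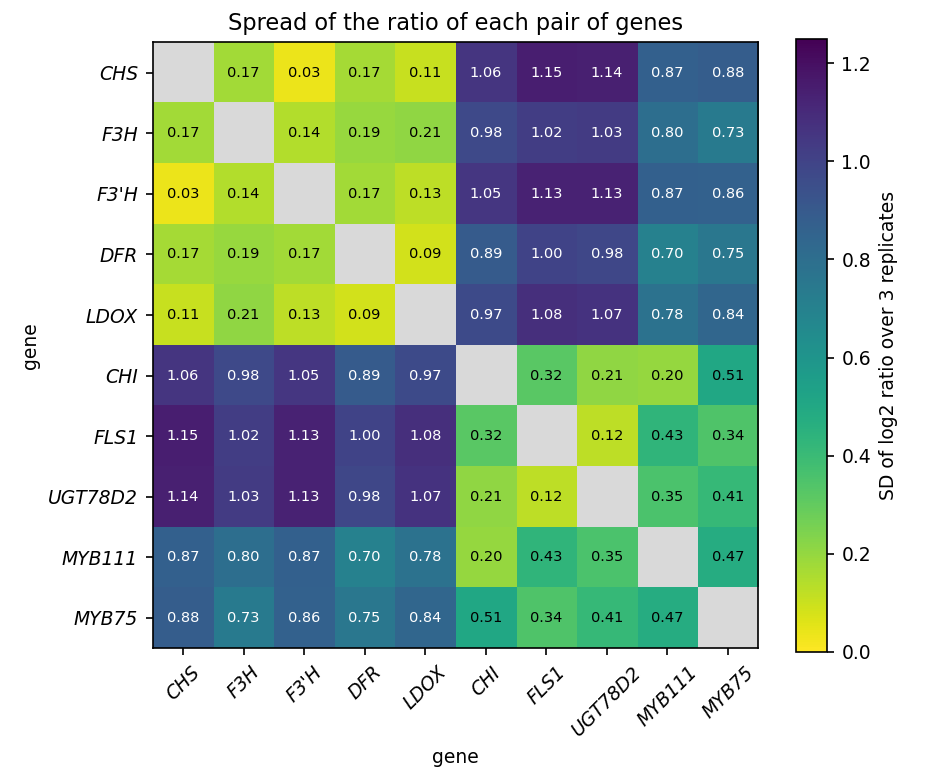
SD over the 3 replicates of the log2 ratio of CPM for each pair of genes, with yellow for steady and purple for variable ratios. *CHS*, *F3H*, *F3'H*, *DFR*, and *LDOX* form a block of 0.03 to 0.21, and their ratios to the other 5 genes vary by 0.70 to 1.15.

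The early steps added to 183, 367, and 47.3 CPM in CTRL1, CTRL2, and CTRL3, the anthocyanin enzymes *DFR* and *LDOX* to 122, 230, and 24.9 CPM, and *FLS1* alone to 5.29, 10.3, and 3.80 CPM. In CPM, *FLS1* over the mean of *DFR* and *LDOX* gave log2 ratios of -3.52, -3.48, and -1.71 in the order of the replicates. Per kb of transcript these were -3.57, -3.53, and -1.76. The gap between the branches was thus alike in the first 2 replicates and smaller in CTRL3. *DFR* and *LDOX* kept closer to the early steps, at 0.41, 0.33, and 0.07 on the log2 scale of mean CPM per gene.

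The makeup of the reads of the 10 genes shifted accordingly. *CHS* took 35.3% and 38.3% of them in CTRL1 and CTRL2 but 25.3% in CTRL3. *CHI* took 11.3%, 7.58%, and 21.0%, and *FLS1* took 1.62%, 1.61%, and 4.38%. *UGT78D2* took 3.88%, 3.26%, and 9.43%. In CTRL3 the reads were therefore few, and the shares of *CHI*, *FLS1*, and *UGT78D2* were higher than in the other replicates. Those of *MYB75* (2.69%) and *MYB111* (0.505%) were also highest there. *CHS* still had the largest share in CTRL3, and *DFR* (16.0%) and *LDOX* (12.6%) stood above *UGT78D2* and *FLS1*.

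Levels of different genes are given first per kb of annotated transcript. Since 1 read stands for 1 cDNA, this division lowers genes with long transcripts, and CPM alone compares numbers of cDNAs. *CHS* was the most abundant, at 74.9 ± 65.8 CPM per kb (SD, n = 3), followed by *DFR* at 44.2 ± 35.8, *LDOX* at 41.7 ± 34.4, *CHI* at 31.1 ± 13.7, and *F3H* at 19.4 ± 17.8. *UGT78D2* stood at 8.59 ± 3.96, *MYB75* at 4.94 ± 3.72, *FLS1* at 4.27 ± 2.24, *F3'H* at 3.93 ± 3.51, and *MYB111* at 0.620 ± 0.326. *LDOX* and *CHI*, *F3H* and *UGT78D2*, *MYB75* and *FLS1*, and *FLS1* and *F3'H* are neighbours whose log2 ratio did not exceed its SD over replicates. On this scale *CHS* led in CTRL1 and CTRL2, and *CHI*, at 16.4 CPM per kb against 12.9 for *CHS*, led in CTRL3. In CPM, which counts cDNAs without regard to length, *CHS* led in all 3 replicates. Mean CPM also reversed the order of *F3'H* at 7.57 ± 6.77, *FLS1* at 6.46 ± 3.40, and *MYB75* at 5.48 ± 4.13.

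The coefficient of variation over the 3 replicates was 81.1% at the median of the 9 genes with at least 100 reads, and 13.1% over 13471 features with as many. The members ranged from 44.0% for *CHI* to 91.7% for *F3H*, with *F3'H* at 89.4% and *CHS* at 87.9%. Counting alone would give 3.22% for *CHS* and up to 15.6% for *MYB75*, each well below the spread measured. Each of the 9 genes lay above the 95th percentile of features with similar reads. The genes were chosen by CPM that differed between these same replicates, so nothing is read from this rank.

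**Figure D3:**
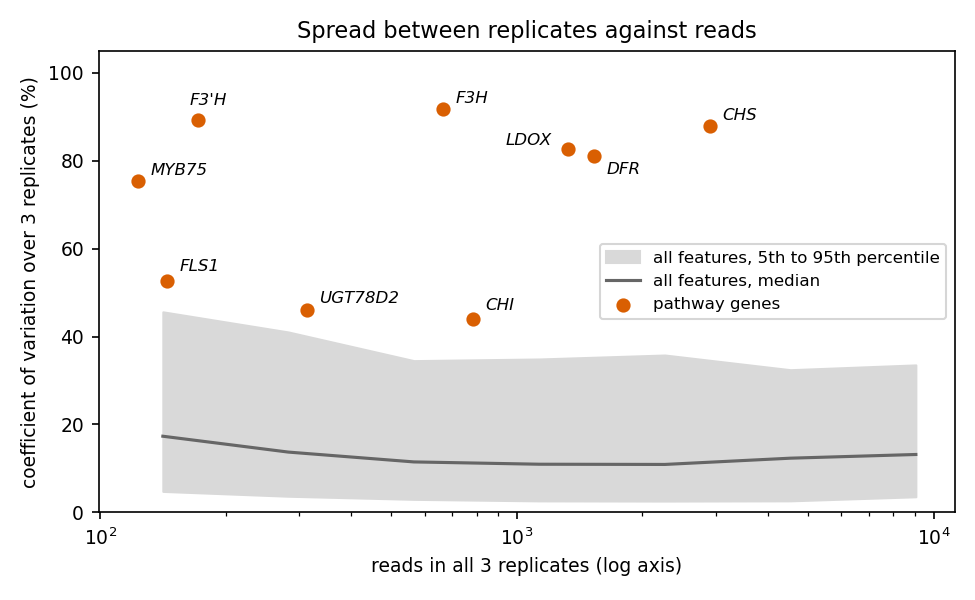
Coefficient of variation over the 3 replicates against the reads of a gene in all replicates on a log axis. The grey band spans the 5th to the 95th percentile of all features with at least 100 reads and the line is their median, and all 9 genes plotted, from *CHI* at 44.0% to *F3H* at 91.7%, lie above the band. The genes were chosen by CPM that differed between these replicates, so nothing is read from their place.

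Other genes of the pathway were described from lists by role. Of 46 such genes in the table, 41 had at least 10 reads. Of these, 12 were at least 2-fold lower in CTRL3 than in CTRL1, beside 1.51% of all features. Against CTRL2, 15 were so, beside 2.73%. In both comparisons 0 were higher by that factor, beside 3.71% and 2.95%. The medians of the 41 genes were -0.42 and -0.54. The later anthocyanin enzymes made up 8 of the 15 lower than in CTRL2. *MYB11* and *MYB113* had 0 reads in CTRL3 and count only through the pseudocount, as given below.

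The later anthocyanin enzymes resembled *DFR* and *LDOX*. Of 8, all were at least 2-fold lower in CTRL3 than in CTRL2, beside 2.73% of all features, with a median of -2.64. Against CTRL1, 6 were so, beside 1.51%, with a median of -1.66. *GSTF12*, a glutathione S-transferase needed to bring anthocyanins into the vacuole, had 422, 826, and 72 reads, or 52.0, 112, and 10.5 CPM, and its log2 ratio to *LDOX* stayed at -0.13, 0.06, and -0.06. *UGT79B1*, which adds xylose, had 151, 269, and 17 reads and had the lowest log2 ratios of the 8, -2.68 for CTRL3 over CTRL1 and -3.63 for CTRL3 over CTRL2.

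*UGT75C1*, the 5-O-glucosyltransferase of anthocyanins, had 113, 138, and 26 reads. The coumaroyltransferase genes had 27, 70, and 8 reads for *3AT1* and 54, 71, and 13 reads for *3AT2*, and the malonyltransferase gene *5MAT* had 64, 91, and 10 reads. The remaining 2 genes differed in pattern. *SCPL10*, a sinapoyltransferase, had 49, 217, and 25 reads, so that CTRL2 alone stood high, and *BGLU10*, a glucosyltransferase that uses acyl-glucose, had 54, 182, and 70 reads and stood 0.59 higher on the log2 scale in CTRL3 than in CTRL1.

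Of the 6 other genes of the flavonol branch with at least 10 reads, 0 were 2-fold apart in any pair of replicates. Over all features, 1.10% to 3.71% were so in each pair and direction. A count of 0 among 6 genes is near that share, so nothing is read from it. *UGT78D1*, which adds rhamnose to flavonols, had 173, 175, and 94 reads, *UGT89C1* and *UGT73C6*, which act at the 7 position, had 107, 112, and 94 reads and 74, 75, and 59 reads, and *RHM1*, a UDP-rhamnose synthase, had 249, 265, and 175 reads. *FLS1* and the 8 listed flavonol genes together added to 85.9, 99.4, and 70.8 CPM, while the anthocyanin branch with its later enzymes added to 237, 482, and 60.1 CPM. The *FLS1* paralogs *FLS2* and *FLS3* stood at 39, 24, and 28 reads and at 8, 5, and 6 reads. *UGT78D1* was lower in CTRL3 beyond counting error. CTRL1 was 1.55-fold above CTRL3, counting interval 1.20 to 2.01, and CTRL2 was 1.72-fold above it, interval 1.33 to 2.24. *RHM1* was separated only between CTRL2 and CTRL3, at 1.40-fold with an interval of 1.15 to 1.71. *UGT89C1*, *UGT73C6*, *FLS2*, and *FLS3* were not separated between any of the replicates.

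Upstream, 1 of 8 phenylpropanoid genes, beside 0.941% of all features, was at least 2-fold lower in CTRL3 than in both others. This was *PAL1*, a phenylalanine ammonia-lyase at the head of the pathway, with 595, 620, and 220 reads, or 73.3, 83.9, and 32.2 CPM. *PAL2* had 386, 404, and 187 reads, which is within 2-fold. The medians of the 8 genes were -0.38 and -0.31. *CHIL* was the only listed early gene beyond the 10, at -1.44 and -2.26. The proanthocyanidin branch, which serves the seed coat, was close to undetected, with 1 read in all for *BAN*, the anthocyanidin reductase, and 6, 11, and 4 reads for the proton pump gene *AHA10*.

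**Figure D4:**
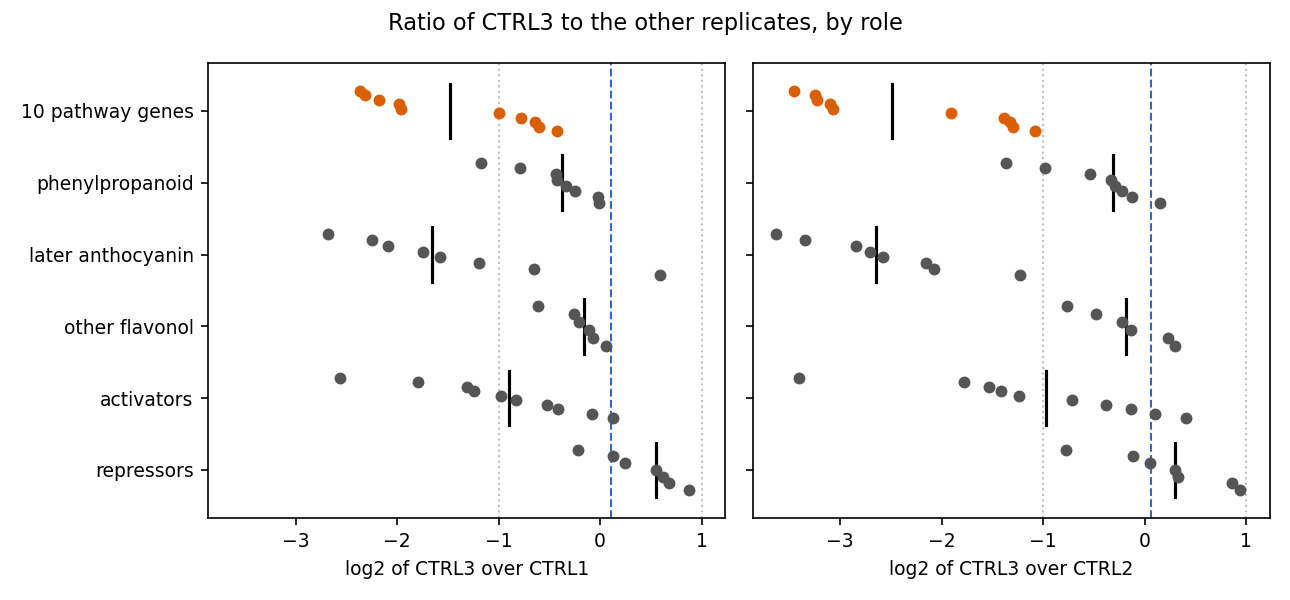
Log2 ratio of CTRL3 to CTRL1 (left) and of CTRL3 to CTRL2 (right) on the log2(CPM + 0.5) scale for genes with at least 10 reads, by role, with the median of each role as a bar. The dashed line is the median of all features, the dotted lines are 2-fold, and the 10 pathway genes and the later anthocyanin enzymes have the lowest medians of the 6 roles in both panels, while *MYB11* and *MYB113* among the activators had 0 reads in CTRL3, so their points depend on the pseudocount.

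Among the activators, 10 of 12 had at least 10 reads. Of these, 4 were at least 2-fold lower in CTRL3 than in CTRL1, beside 1.51% of all features. Against CTRL2, 5 were so, beside 2.73%. *MYB90*, also called PAP2 and the closest relative of *MYB75*, had 27, 47, and 1 reads. CTRL2 was 43.5-fold above CTRL3 with a counting interval of 7.43 to 1754, so the size of this difference is poorly known. *MYB113* had 10, 9, and 0 reads. Its counting interval for CTRL1 over CTRL3 starts at 1.89, so a gap of 2-fold was not resolved. *MYB114* had 25, 32, and 9 reads and *TT8*, the bHLH partner, had 20, 32, and 8.

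*MYB11*, a flavonol activator, had 6, 5, and 0 reads. Its counting intervals start at 0.991 for CTRL1 over CTRL3 and at 0.848 for CTRL2 over CTRL3. *MYB11* was therefore not separated between these replicates. Its relative *MYB12* had 9, 11, and 7 reads. *TTG1*, the WD40 partner, was steady at 391, 426, and 359 reads, and *EGL3*, another bHLH partner, had 12, 4, and 6 reads. The light-signalling bZIP gene *HYH* had 98, 61, and 33 reads and was not highest in CTRL2, and its relative *HY5* had 41, 25, and 25 reads.

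Of the 7 repressors, 0 were 2-fold apart in any pair, beside 1.10% to 3.71% of all features in each pair and direction. *MYBL2*, an R3-MYB repressor of anthocyanin genes, had 600, 805, and 434 reads and so followed the order of the 10 genes in a weaker form. *LBD38* had 211, 184, and 329 reads and *LBD39* had 240, 175, and 297 reads, both highest in CTRL3. *LBD37* had 591, 800, and 767 reads, *CPC* had 26, 31, and 37, and *SPL9* had 88, 95, and 81. *KFB-CHS*, an F-box protein that targets chalcone synthase for breakdown, had 1650, 1440, and 1641 reads. CTRL3 was above CTRL2 by 0.30 on the log2 scale for *KFB-CHS*. A link between its level and that of *CHS* was not tested.

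Some other markers differed between the same replicates. Flower organ genes followed the order of the 10 genes in sum, with all 5 listed and 25, 31, and 7 reads, or 3.08, 4.20, and 1.02 CPM. Singly they did not all do so, since *AP3* and *PI* each had 6 reads in CTRL1 and 4 in CTRL2, and *AG* had 2 reads in CTRL1 and in CTRL3. In CTRL3 *PI* and *AP1* were at 0 reads and *AP3* and *SEP3* had 2 and 3. Their part in the result was not tested. Some clock genes set CTRL3 apart as well. *ELF4*, which peaks in the evening, had 13, 16, and 284 reads, and *TOC1* had 33, 47, and 184. The morning genes *CCA1* and *LHY* had 139, 112, and 61 and 77, 98, and 30. *GI*, another evening gene, had 60, 59, and 70 and was not separated. Its counting intervals were 0.968 to 1.99 for CTRL3 over CTRL1 and 0.894 to 1.84 for CTRL3 over CTRL2. The part of the hour of harvest was not tested, and the labels give no hour.

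Outside the lists, the genes whose profile over the 3 replicates was nearest to the median profile of the 10 were found among 13471 features with at least 100 reads. The profile of the 10 was 0.21, 1.20, and -1.27 as log2 deviation from the mean in CTRL1, CTRL2, and CTRL3. *NPC4* (AT3G03530), a phospholipase C, was nearest at a distance of 0.160, with 80, 129, and 21 reads. *PHT1;5* (AT2G32830), a phosphate transporter, had 39, 85, and 11 reads, and *ELIP1* (AT3G22840), an early light-induced chloroplast protein, had 69, 111, and 18. *LTP3* (AT5G59320), a lipid transfer protein, had 306, 476, and 86 reads, and a locus numbered by the authors had 39, 63, and 10. A profile over 3 replicates holds few values, so many genes can lie near it.

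Reads of near-identical copies could be shared between genes. *LDOX* matched AT4G22870 at 95.95% identity over 321 bp of its 1400 bp transcript. AT4G22870 had no entry among the ONT Pc features, so some *LDOX* reads are uncertain. *MYB75* and *MYB90* were 82.1% identical over 864 bp, and *UGT78D2* and *UGT78D3* 82.4% over 1402 bp. *UGT78D3* had 4, 2, and 1 reads, which is few beside *UGT78D2*. No other transcript matched *CHS*.

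Positions are those of the TAIR10.1 annotation. *CHS* spans chr5:4488476-4490264 with 2 exons, *CHI* chr3:20430059-20431597 with 4, *F3H* chr3:19025192-19026872 with 3, *F3'H* chr5:2560328-2563137 with 4, and *FLS1* chr5:2803833-2805606 with 3. *DFR* spans chr5:17164093-17166032 with 6 exons, *LDOX* chr4:12004726-12006209 with 2, *UGT78D2* chr5:5607788-5609589 with 2, *MYB75* chr1:21233555-21235292 with 3, and *MYB111* chr5:19998823-20001572 with 3. Their transcripts are 1109 to 1929 bp long, and 6 of the 10 genes lie on chromosome 5.

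The PacBio library was deposited as a list of Pfam protein families with the reference transcripts and PacBio isoforms in each, without reads or replicates and without pairing of loci and genes. All 10 genes were in its reference part. The chalcone-flavanone isomerase family, which holds *CHI*, listed 7 reference genes and 1 PacBio isoform at 1 locus. The N-terminal family of chalcone and stilbene synthases, which holds *CHS*, listed 15 reference genes and 13 isoforms at 5 loci. The 2OG-Fe(II) oxygenase family, which holds *F3H*, *FLS1*, and *LDOX*, listed 128 reference genes and 60 isoforms at 22 loci. Which isoforms belong to the 10 genes could not be read from the list.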

How the data were processed

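Total RNA of the aboveground parts was sequenced as 3 ONT Pc replicates and 1 PacBio library. The sample titles name only Nanopore or PacBio, and the Nanopore samples were taken as ONT Pc. The paper also sequenced cDNA directly (ONT Dc), which was not analysed here. For ONT Pc, the authors base-called reads with Guppy, built consensus sequences with minimap2 and Racon, mapped them with GMAP, counted with Salmon, and deposited CPM per gene. The submitters' processing notes name minimap2 and the build TAIR10. The deposited CPM of CTRL1, CTRL2, and CTRL3 added to 1000000, 476263, and 305905, because the divisors, 8122432, 15508616, and 22343645, equal running totals of reads. All values (100%) were whole multiples of 1 read within 0.001, so reads were recovered and CPM were rescaled to each replicate's own total. The PacBio file, deposited by the authors after Iso-Seq clustering and removal of redundancy with cDNA_Cupcake, is another kind of list, of transcript identifiers by Pfam family, with no measurement. All per-sample columns entered the analysis, with 0 left unused.

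Ratios between replicates are differences of log2(CPM + 0.5), for features with at least 10 reads in all. Coefficients of variation and profiles needed at least 100 reads. Intervals of ratios between replicates are exact binomial (Clopper-Pearson) at 95%, conditional on the summed reads, and cover counting error only. CPM per kb used the longest RefSeq TAIR10.1 transcript of a gene. Motifs were searched in 27443 promoters, and closest transcripts were found with BLAST 2.17.0. TAIR10.1 held all 10 genes. There was 1 group with replicates and no contrast, so no test was run and no p-value is given. Each replicate was 1 library, so the spread does not separate the pools of plants from library preparation and sequencing.

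The 10 genes, the lists (phenylpropanoid, early, flavonol, anthocyanin, proanthocyanidin, regulators, clock, and markers of leaf, flower, seed, and root), and the rules were chosen with earlier results of these data known. Genes named are the 10, the listed genes at least 2-fold apart between CTRL3 and both others in 1 direction, the regulators with at least 10 reads, and the 5 features nearest in profile. Any other listed gene was picked for naming with its values known. The proanthocyanidin genes *TT12* and *TT10*, the root markers *COBL9* and *EXPA7*, and 4 seed storage genes had no entry among the ONT Pc features. Alternatives were other pseudocounts, filters, folds, and scalings (edgeR 4.0.16 for TMM), and leaving out replicates. The procedure was tested on simulated data. The software was R 4.3.3 and Python 3.11.15 with matplotlib 3.10.9, pandas 2.3.3, scipy 1.17.1, and numpy 2.4.6.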

Additional observations from a re-analysis of the deposited data

How the results depend on the processing

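Scaling mattered most. With CPM as deposited, the divisors lower all features of CTRL2 and CTRL3, and the median log2 ratios over features with at least 20 reads in both replicates were -1.60 for CTRL3 over CTRL1, -0.59 for CTRL3 over CTRL2, and -1.01 for CTRL2 over CTRL1. The median of the 10 genes then became -2.80 for CTRL3 over CTRL1 and turned to -0.12 for CTRL2 over CTRL1, since *CHS* is deposited at 115, 117, and 6.71 CPM. Genes at least 2-fold apart became 10 for CTRL3 below CTRL1 and 0 for CTRL2 above CTRL1, and the wider list gave 35 and 1. The share of all features past 2-fold was not computed for CPM as deposited, so nothing is read from these counts. TMM and median-of-ratios factors kept the sign of all 30 ratios of single genes and moved none of these medians and counts by more than counting error or 1.5 times.

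A pseudocount of 1 gave a median of -2.25 for CTRL3 over CTRL2. With at least 100 reads in all, which drops *MYB111*, the medians were -1.96 against CTRL1 and -3.07 against CTRL2. A limit of 1.5-fold gave 9 genes lower in CTRL3 than in CTRL1 and 8 higher in CTRL2 than in CTRL1, and 10 of the wider list in the latter. The share of all features past 1.5-fold was not computed, so nothing is read from these counts. The median coefficient of variation was 45.3% to 113% when 1 replicate was left out, 45.3% without CTRL3 and 113% without CTRL1, so CTRL3 carries much of it. The summed level of the 10 genes was 207 to 483 CPM and *FLS1* over *DFR* and *LDOX* was -3.50 to -2.60 when 1 replicate was left out. With later enzymes the branch ratio in CPM was -1.31, -2.13, and 0.39 in CTRL1, CTRL2, and CTRL3. Its mean was -1.02 ± 1.28 (SD), and its sign in CPM turned in CTRL3. Per kb of transcript the ratio was -1.75, -2.56, and 0.03, so the branches were nearly level in CTRL3 on that scale. Counting loci with at least 2 isoforms left 0 isoforms in the isomerase family. Windows with 50 bases after the start raised the genes with ACGT to 7, *FLS1* among them, those with CACGTG to 4 by *CHI*, and those with ACCNACC to 2 by *CHS*. The shares of all promoters rose as well, to 49.9% for ACGT, 7.68% for CACGTG, and 7.39% for ACCNACC. No paired analysis was possible because only 1 group has replicates, so no samples of another group share their numbers. MYB111, at 23 reads, and the regulators under 50 reads limit what depth can show.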
